A study of Mus musculus with 18 samples.

Results

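The genes described here are 52 genes of mitosis, which build and control the spindle, the kinetochores and the cut between daughter cells. They were matched by symbol to a list drawn up from known roles in mitosis, with earlier results of these data known, out of 55335 gene identifiers counted in O9-1 cells, a line of neural crest (NC) cells from mouse embryos. All 52 were found, and all 52 passed edgeR's filter on low counts on both days. A stricter filter, at least 10 counts in every library, lost Spc24 at d5. By role they comprise 8 genes of Cdk1, its cyclins and its activating enzymes, 4 of the chromosomal passenger complex, 10 of the spindle checkpoint and the anaphase-promoting complex (APC/C), 10 of the centromere and kinetochore, 10 kinesins, 6 of spindle assembly and cytokinesis and 4 chromosome proteins and transcription factors.

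In mitosis, Cdk1 bound to cyclin B starts the break-up of the nuclear envelope and the assembly of a spindle from microtubules. Kinetochores, protein assemblies on the centromere of each chromosome, capture the microtubules, and the spindle checkpoint holds back the APC/C until all are attached. The APC/C then marks securin and cyclin B for destruction, separase cuts the cohesin between sister chromatids, and the contractile ring divides the cell. Most genes of this machinery are transcribed late in the cell cycle, so that their RNA in bulk is known to follow the share of dividing cells.

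All 18 libraries were made from wildtype O9-1 cells in osteoblast differentiation medium, with 3 libraries in each of 6 groups. Ctrl+vehicle cells carried a scrambled control siRNA and received no FGF2, Ctrl+FGF2 cells carried the same siRNA with FGF2, and Y/T dKD+FGF2 cells carried siRNA pools against Yap1 and Wwtr1 (the Taz gene) with FGF2. Each group was sampled at d2.5 and at d5 of differentiation. In the labels each day is also a batch. Groups were compared within a day, and where values or effects of the days are set against each other, day and batch cannot be told apart. Knockdown cells without FGF2 are not among the groups. Nothing states that replicates came from separate cultures, so p-values measure the spread between these libraries, which may be technical.

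The targets of the siRNA were read first. Yap1 was at 131, 126 and 128 CPM (counts scaled to library size) in the Ctrl+FGF2 libraries and 65.2, 65.3 and 69.5 CPM in the Y/T dKD+FGF2 libraries of d2.5, and at 159, 147 and 152 CPM without and 73.9, 67.2 and 70.1 CPM with the knockdown at d5. Wwtr1 was at 221, 219 and 224 CPM without and 142, 130 and 135 CPM with the knockdown at d2.5. The d5 levels of Wwtr1 were 213, 218 and 214 CPM without and 122, 128 and 123 CPM with it. Both RNAs were thus lowered and not lost in every knockdown library. Counts on genes lay between 10377151 and 14698525 a library. Of 14 markers of NC and cranial mesenchyme, 11 were tested on each day, and Sox10 and Foxd3 had no count in any library. With FGF2, 1 of the 11 was called higher and 5 lower at d2.5, and 5 higher and 4 lower at d5. With the knockdown 3 were called higher and 2 lower at d2.5, and 6 higher and 4 lower at d5. Over all genes, 4575 of 13677 were called higher and 4668 lower with FGF2 at d2.5, and 3125 of 13304 higher and 3153 lower at d5. With the knockdown these counts were 1483 and 1862 at d2.5, and 2079 and 2141 at d5. The summed level of the 14 markers lay between 1987 and 2693 CPM over the 18 libraries. Of 11 markers of other cell types (endothelium, blood, epithelium, muscle and pluripotent cells), Cdh5, Myod1, Myog and Pou5f1 were at 0 in every library. These 11 markers summed to 4.71 to 5.86, 3.34 to 4.44 and 4.43 to 5.13 CPM at d2.5 with vehicle, with FGF2 and with FGF2 plus knockdown, and to 2.61 to 3.86, 4.13 to 6.10 and 6.31 to 7.22 CPM at d5. In bulk libraries, fewer dividing cells and less RNA of these genes in each cell cannot be told apart.

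At d5 some libraries stood apart in these genes. The 52 genes summed to 1929, 1125 and 1528 CPM in Ctrl+vehicle replicates 1, 2 and 3, to 699, 356 and 531 CPM in the Ctrl+FGF2 replicates and to 743, 893 and 846 CPM in the Y/T dKD+FGF2 replicates. Ctrl+vehicle replicate 1 was the highest library of its group for 52 of the 52 genes and replicate 2 the lowest for 51. In Ctrl+FGF2 cells replicate 1 was the highest for 50 genes and replicate 2 the lowest for 50. The ratio of the highest to the lowest replicate had a median over the 52 genes of 1.73 with vehicle, 2.06 with FGF2 and 1.26 with FGF2 and the knockdown, against 1.13, 1.12 and 1.10 over all genes. At d2.5 the members' ratios were 1.16, 1.06 and 1.09. Members thus moved together from library to library at d5. The order of replicate numbers by summed level was the same with vehicle and with FGF2, and differed with the knockdown. What set these libraries apart was not tested. Counts and medians over the 52 genes that rest on single d5 libraries are given with and without them. For single genes, the number of fits without 1 library that kept a call is given only for some.

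**Figure D1:**
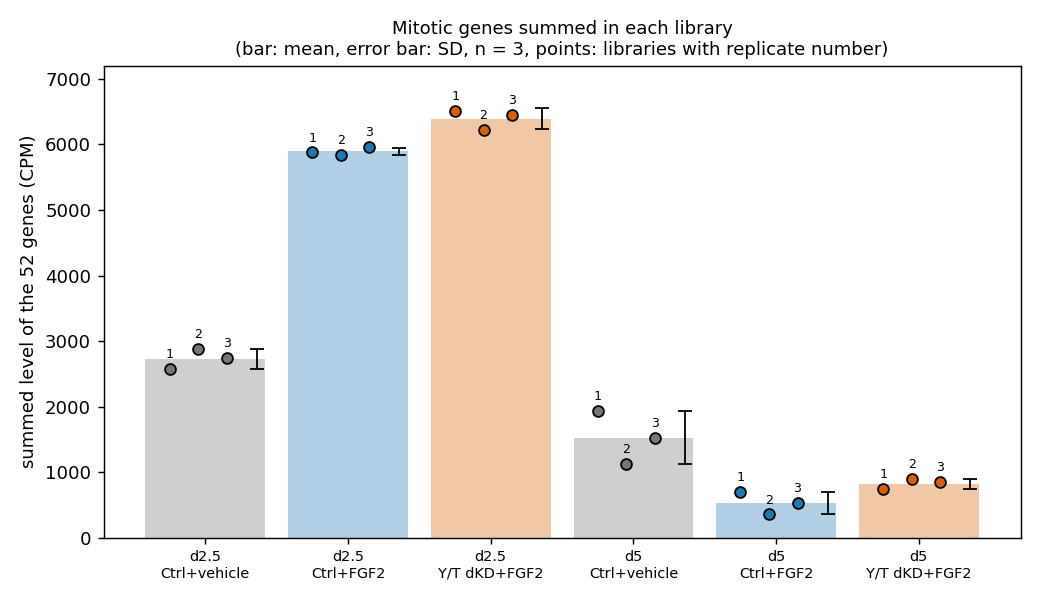
Summed level of the 52 mitotic genes in CPM for each of the 18 libraries, with bars for group means, error bars for SD (n = 3) and replicate numbers at the points. With FGF2 the sum was higher than with vehicle at d2.5 (5844 to 5955 against 2575 to 2875 CPM) and lower at d5 (356 to 699 against 1125 to 1929 CPM).

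Promoters of late cell cycle genes often hold a cell cycle genes homology region (CHR), which the MuvB complex binds, and CCAAT boxes, which NF-Y binds. RefSeq promoter windows on GRCm38.p6, from 250 bases before to 50 after a start site, were found for 44 of the 52 genes. Ccna2, Cdc25c, Aurkb, Incenp, Spc24, Kif20a, Tpx2 and Foxm1 had no entry. Of the 44, 31 (70.5%) held the CHR letters TTTGAA on either strand at any listed start site, against 20.2% of the 27025 genes in the table. The variant TTTAAA was in 10 of the 44 (22.7%, against 14.9% of genes), and 34 (77.3%, against 30.6%) held either form, a count made after those of the single forms were seen. CCAAT was in 31 (70.5%, against 41.1%), and 25 (56.8%, against 8.97%) held both TTTGAA and CCAAT. Of the 125 further mitotic genes described below, 103 had an entry. TTTGAA was in 39 of these (37.9%) and CCAAT in 59 (57.3%). The E2F-like letters TTTCGCGC were in 1 of the 44, Cdk1, against 0.374% of genes. Of 44 TTTGAA matches in members, 20 began within the 50 bases after a start site and 12 within the 50 before it. CCAAT matches were most frequent between 100 and 51 bases before a start site (27 of 72), as they were over all genes (4530 of 17707). A match is a string of letters and no shown binding site, and start sites listed close together count the same letters more than once.

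**Figure D2:**
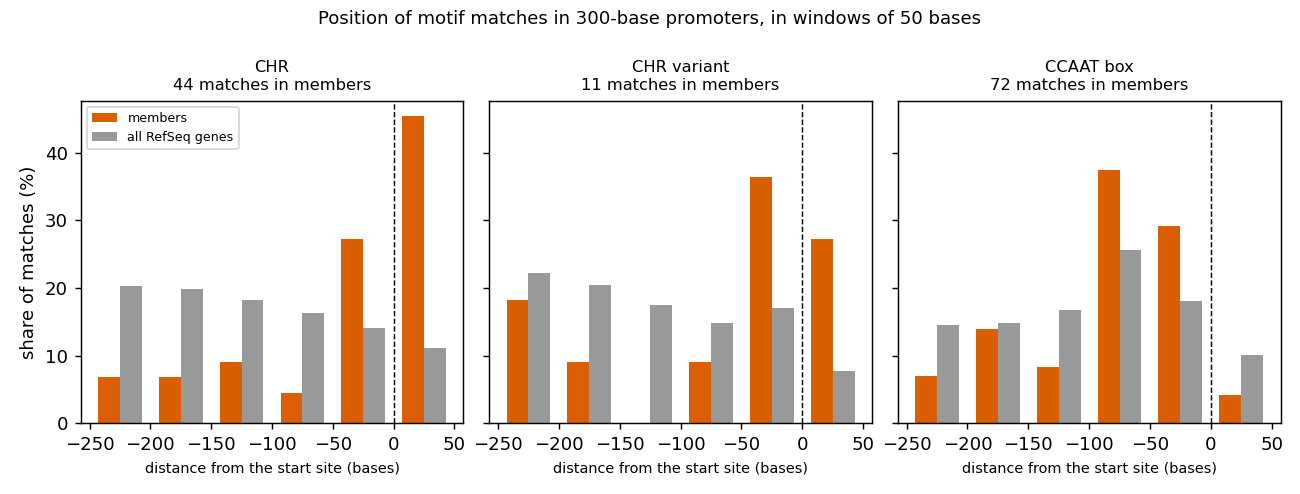
Share of motif matches (%) by distance from the start site in bases, in windows of 50 bases, for the 44 members with a promoter entry and for all RefSeq genes. The CHR letters of members gather at the start site (20 of 44 matches in the last window, against 755 of 6737 over all genes). CCAAT lies mostly upstream of it in members and over all genes (3 of 72 and 1800 of 17707 matches in the last window).

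The windows of 4 members are printed, picked by hand from genes at or near the ends of the responses described next. Ect2 rose most with FGF2 at d2.5 and Bub3 rose least. Knl1 had one of the largest falls at d5, and Ccnb1, cyclin B1, was among the most raised by the knockdown at d5. Spc25, which fell most with FGF2 at d5 and held both TTTGAA and CCAAT, is not shown. Each runs 5′ to 3′ on the strand of its gene, with the matches to these motifs in capitals, CHR letters also as their reverse complement. The windows are chr3:27153829-27154128 (minus strand) for Ect2, chr2:119046869-119047168 (plus) for Knl1, chr13:100786437-100786736 (minus) for Ccnb1 and chr7:131560120-131560419 (plus) for Bub3, where Ect2 and Bub3 each have 2 listed windows and the first is shown.
Ect2: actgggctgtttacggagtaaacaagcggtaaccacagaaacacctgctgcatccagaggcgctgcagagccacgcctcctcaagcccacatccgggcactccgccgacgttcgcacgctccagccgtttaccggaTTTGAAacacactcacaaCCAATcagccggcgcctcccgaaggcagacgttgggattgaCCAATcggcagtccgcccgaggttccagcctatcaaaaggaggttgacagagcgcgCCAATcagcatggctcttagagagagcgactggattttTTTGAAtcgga
Knl1: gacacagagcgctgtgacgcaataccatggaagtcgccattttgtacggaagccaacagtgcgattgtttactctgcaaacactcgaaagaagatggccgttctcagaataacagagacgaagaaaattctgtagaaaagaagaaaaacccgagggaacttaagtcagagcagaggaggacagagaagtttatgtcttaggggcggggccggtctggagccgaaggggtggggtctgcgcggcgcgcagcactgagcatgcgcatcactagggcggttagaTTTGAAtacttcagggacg
Ccnb1: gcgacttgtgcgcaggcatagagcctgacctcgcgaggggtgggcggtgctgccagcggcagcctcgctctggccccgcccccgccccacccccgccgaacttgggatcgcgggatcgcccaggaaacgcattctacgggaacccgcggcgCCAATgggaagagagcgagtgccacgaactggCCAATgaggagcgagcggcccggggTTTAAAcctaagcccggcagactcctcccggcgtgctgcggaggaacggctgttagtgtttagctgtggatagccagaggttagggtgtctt
Bub3: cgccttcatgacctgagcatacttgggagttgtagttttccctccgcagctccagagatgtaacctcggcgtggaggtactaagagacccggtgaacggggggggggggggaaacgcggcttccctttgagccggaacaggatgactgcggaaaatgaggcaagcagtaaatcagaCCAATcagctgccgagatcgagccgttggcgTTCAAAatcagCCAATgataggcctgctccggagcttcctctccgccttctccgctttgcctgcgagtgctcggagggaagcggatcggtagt

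Ect2 held 2 TTTGAA and 3 CCAAT matches and Knl1 held 1 TTTGAA and 0 CCAAT matches. Ccnb1 held no TTTGAA, 1 TTTAAA and 2 CCAAT matches. Bub3 held 1 TTTGAA and 2 CCAAT matches, so of these windows those of Ect2 and Bub3 held both. The part of these motifs in the responses was not tested.

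FGF2 raised every one of these genes at d2.5. All 52 were called higher in Ctrl+FGF2 than in Ctrl+vehicle cells, where called means an adjusted p under 0.05 in edgeR's quasi-likelihood test over all 13677 genes tested, and 33.5% of all genes were called higher. The median log2 fold change of the members was 1.07, against 0.00 over all genes. It ranged from 0.31 for Bub3, 0.65 for Spc24 and 0.66 for Pttg1 to 1.48 for Anln, 1.63 for Mybl2 and 1.70 for Ect2. A rise of at least 2-fold was called for 35 of the 52, against 6.33% of all genes. In all 52 the 3 libraries with FGF2 lay above the 3 with vehicle, which held for 35.9% of all genes. The 52 calls were made again in each of the 9 fits that left out 1 library, in which the median lay between 1.01 and 1.12.

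At d5 the direction was the opposite. With FGF2, 50 of the 52 genes were called lower than with vehicle, against 23.7% of all 13304 genes tested, and 48 fell at least 2-fold, against 3.36% of all genes. The median log2 fold change was −1.62, against 0.02 over all genes, and the largest falls were those of Spc25 (−2.22) and Knl1 (−2.20). The 2 genes not called were Bub3 (−0.18, SE 0.07, adjusted p = 0.0518) and Pttg1 (−0.05, SE 0.14, adjusted p = 0.774). For 50 genes every FGF2 library lay below every vehicle library (27.8% of all genes). The other two, Cdc20 and Pttg1, overlapped. All 50 calls were kept in the 9 fits that left out 1 library, but the median moved with the libraries that stood apart, from −1.34 to −1.96.

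Whether the FGF2 effect differed by day was tested over all 18 libraries together. The difference was called for 52 of the 52 genes, in the direction of a lower effect at d5 (29.1% of 14198 genes were called so), with a median of −2.77 on the log2 scale. Ect2 (−3.46) and Knl1 (−3.41) had the largest differences and Bub3 (−0.51) and Pttg1 (−0.73) the smallest. Across the 52 genes, the sizes of the effects at d2.5 and d5, which share no library, had a Pearson's r of −0.40 and a Spearman's rho of −0.16, given as a description over genes of one process. Mean summed levels were 1.79-fold higher at d2.5 than at d5 with vehicle, 11.2-fold with FGF2 and 7.73-fold with FGF2 and the knockdown, values that include the batch of the day. Osteoblast markers were read beside these genes. The 6 of the list summed to 13234 to 13393 CPM in Ctrl+vehicle, 2296 to 2424 in Ctrl+FGF2 and 2161 to 2296 in Y/T dKD+FGF2 libraries at d2.5, and to 31072 to 33086, 15843 to 17596 and 21873 to 23235 CPM at d5. With FGF2 all 5 that were tested were called lower at d2.5, where 4668 of all 13677 genes were. At d5, 4 were called lower and 2 higher, where 3153 of all 13304 genes were lower and 3125 higher. With the knockdown, 2 of the 5 were called higher and 1 lower at d2.5, where 10.8% and 13.6% of all genes were. All 6 were called higher at d5 (median 0.72), where 15.6% of all genes were. The part of these markers in the results for the mitotic genes was not tested.

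**Figure D3:**
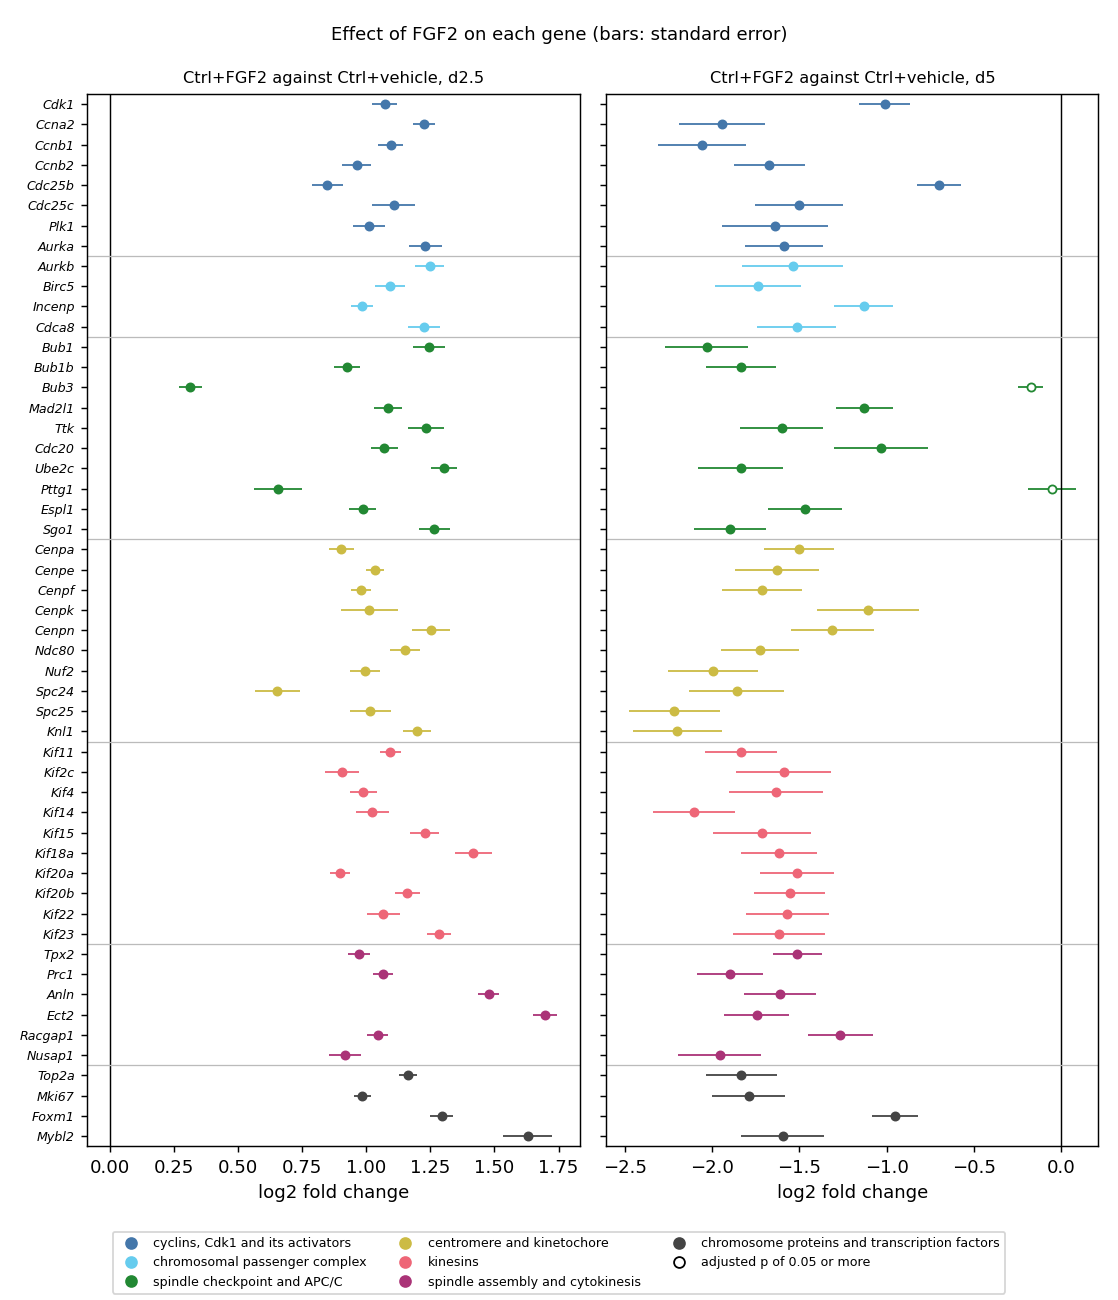
Log2 fold change of each of the 52 genes in Ctrl+FGF2 against Ctrl+vehicle cells at d2.5 (left) and d5 (right), on separate scales, coloured by role, with standard errors as bars and open points for genes not called. Every point lies right of 0 at d2.5 and left of it at d5, where Bub3 and Pttg1 are the 2 open points.

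Between cells with and without the knockdown of Yap/Taz, both with FGF2, differences at d2.5 were small. Against Ctrl+FGF2 cells, whose libraries also enter the FGF2 effect of the day, 20 genes were called higher in Y/T dKD+FGF2 cells, where 10.8% of all genes were called higher. Only Cdc25b was called lower, by −0.16, where 13.6% of all genes were. The median log2 fold change was 0.09, and the largest were 0.26 for Cenpk and 0.23 for Nusap1. In 31 genes all knockdown libraries lay above all Ctrl+FGF2 libraries (20.0% of all genes), in Cdc25b and Foxm1 they lay below, and in 19 they overlapped. Of the 21 calls, 10 were kept in all 9 fits that left out 1 library: Ccna2, Ccnb1, Bub1, Ttk, Cenpf, Kif11, Kif20b, Nusap1, Top2a and Mki67. The count of genes called higher was 11 without Y/T dKD+FGF2 replicate 3 and 13 without Ctrl+FGF2 replicate 1. Set against vehicle, the knockdown cells had all 52 genes called higher, with a median of 1.19, beside 34.1% of all genes.

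At d5 more of the genes were called, with larger differences and larger errors. Of the 52 genes, 32 were called higher and none lower in knockdown cells by edgeR (44 and 0 at an unadjusted p under 0.05), where 15.6% of all genes were called higher and DESeq2 called none of the 52 lower. The median log2 fold change was 0.70, from −0.17 for Pttg1 and 0.09 for Cdc25b, neither called, to 1.10 for Mybl2, 1.19 for Ccnb1 and 1.39 for Spc24. For 32 genes, not all of them the called ones, the groups did not overlap (23.4% of all genes). The count depended on single libraries and on the fit. It was 10 when Ctrl+FGF2 replicate 2, the library with the lowest levels, was left out, 10 without Y/T dKD+FGF2 replicate 2, 13 and 19 without replicate 3 of Y/T dKD+FGF2 and of Ctrl+FGF2, and 14 with DESeq2. It was 47 without Ctrl+FGF2 replicate 1 and also with no filter on low counts, 42 with only the 2 groups compared and 41 with a replicate block. Leaving out Ctrl+FGF2 replicate 2 gave a median of 0.41, and leaving out replicate 1 of that group gave 1.02. The 8 genes called in all 9 fits that left out 1 library were Ccnb1, Ndc80, Spc24, Kif11, Kif14, Prc1, Top2a and Mybl2. Where a knockdown call of a member is given with its p and was lost in such a fit, the number of the 9 fits that kept it follows.

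Most levels with the knockdown were below those of Ctrl+vehicle cells at d5. Compared with Ctrl+vehicle, 45 of the 52 genes were called lower in Y/T dKD+FGF2 cells (21.1% of all genes), with a median of −0.94, and the 7 not called were Aurkb, Bub3, Pttg1, Cenpk, Cenpn, Spc24 and Mybl2. The knockdown effect was called larger at d5 than at d2.5 for 23 genes (11.6% of all genes) and smaller for none, with a median difference of 0.60. At an unadjusted p under 0.05 these counts were 40 and 0. Only Ccnb1, Prc1, Spc24 and Mybl2 were called in all 18 fits that left out 1 library. Without d5 Ctrl+FGF2 replicate 2 the count was 5, without Y/T dKD+FGF2 replicate 2 it was 8, without Ctrl+FGF2 replicate 3 it was 14, and without Ctrl+FGF2 replicate 1 it was 43. DESeq2 called 10.

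**Figure D4:**
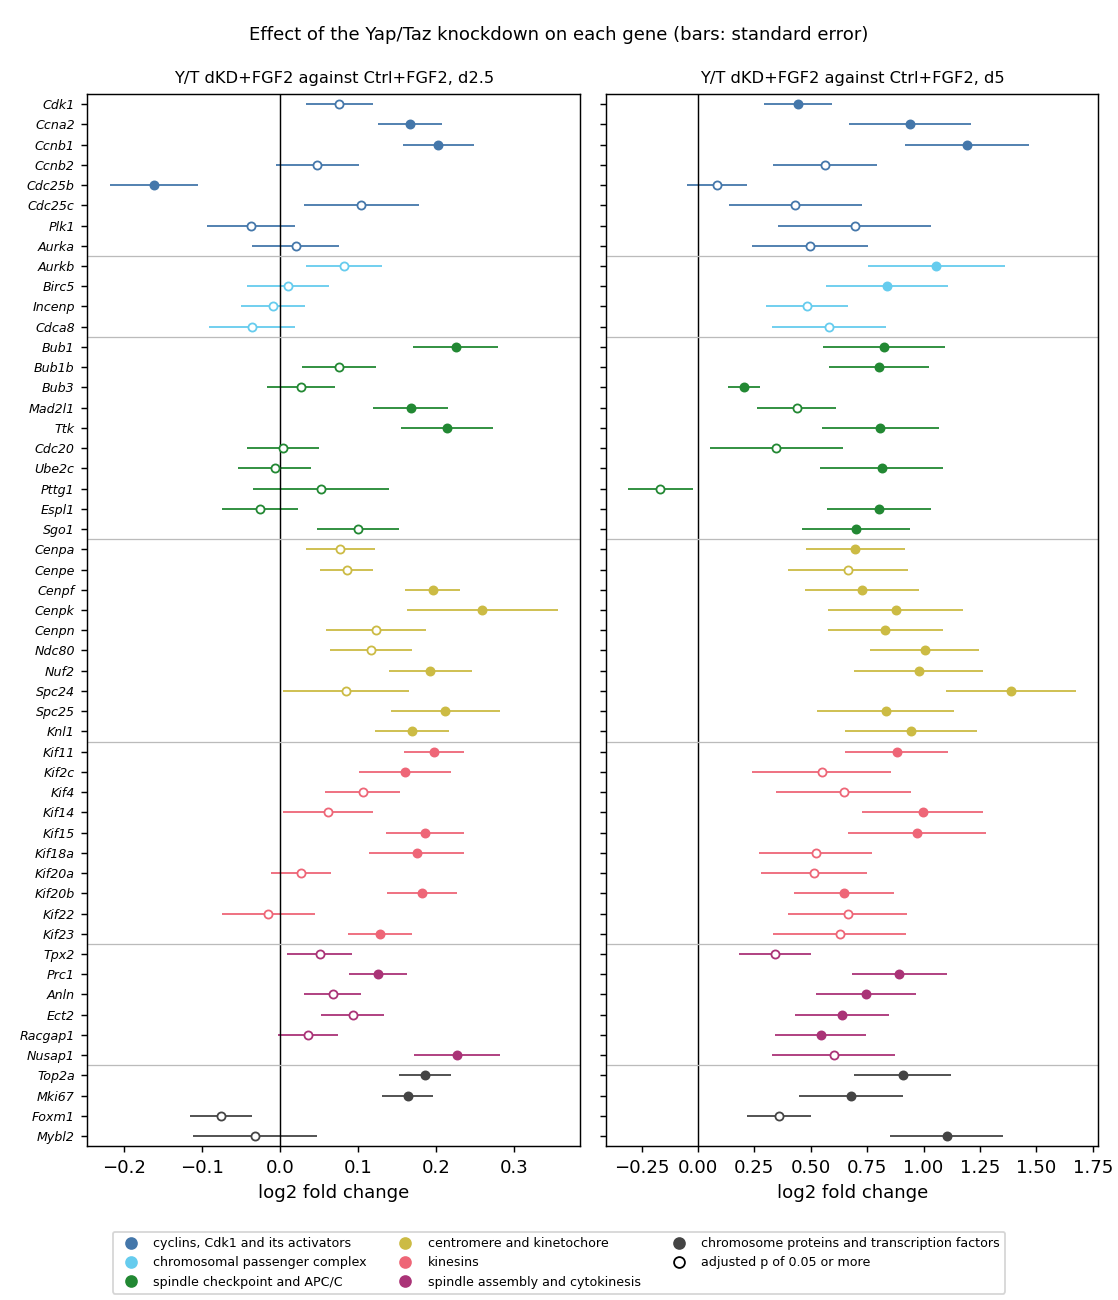
Log2 fold change of each of the 52 genes with the knockdown (Y/T dKD+FGF2 relative to Ctrl+FGF2) at d2.5 (left) and d5 (right), on separate scales, coloured by role, with standard errors as bars and open points for genes not called. At d2.5 the points lie between −0.16 and 0.26, and at d5 between −0.17 and 1.39 with wider errors.

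In the values by library, the knockdown means Y/T dKD+FGF2, and replicates are in the order 1 to 3. For Cdk1 and its partners, all 8 genes were called higher with FGF2 at d2.5 (median 1.08) and all 8 lower at d5 (median −1.61). Cdk1, the kinase that drives entry into mitosis, was at 59.3, 69.3 and 66.7 CPM in Ctrl+vehicle, 138, 138 and 138 in Ctrl+FGF2 and 155, 140 and 145 in Y/T dKD+FGF2 libraries at d2.5. At d5 its levels were 56.6, 35.9 and 48.0 CPM with vehicle, 28.4, 18.8 and 21.7 with FGF2 and 28.5, 31.1 and 34.3 with the knockdown. The vehicle libraries lay apart from the others on both days, at log2 fold changes with FGF2 of 1.07 (SE 0.05, adjusted p = 6.58e-19) and −1.01 (SE 0.14, adjusted p = 1.68e-05). Ccna2, the cyclin of S and G2 phase, was at 116, 134 and 134 CPM with vehicle, 302, 295 and 307 with FGF2 and 358, 328 and 336 with the knockdown at d2.5. At d5 it was at 98.4, 51.1 and 76.1 CPM with vehicle, 29.0, 9.60 and 20.0 with FGF2 and 31.6, 40.0 and 39.8 with the knockdown. The knockdown libraries lay above those of Ctrl+FGF2 on both days, by 0.17 (SE 0.04, adjusted p = 0.00291) and 0.94 (SE 0.27, adjusted p = 0.0125, kept in 8 of 9 fits). Ccnb1, with 1 of the windows printed above, was at 62.1, 74.3 and 71.7 CPM with vehicle, 155, 147 and 147 with FGF2 and 180, 164 and 176 with the knockdown at d2.5. Its d5 levels were 48.8, 24.4 and 32.5 CPM with vehicle, 12.9, 5.04 and 7.27 with FGF2 and 17.6, 21.8 and 17.6 with the knockdown. Its d5 knockdown effect of 1.19 (SE 0.28, adjusted p = 0.00275) was the second largest of the 52, and the groups did not overlap.

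Cdc25b, a phosphatase that activates Cdk1, was the 1 gene called in the opposite direction. It was at 44.7, 46.4 and 37.6 CPM in Ctrl+vehicle, 80.6, 75.8 and 78.2 in Ctrl+FGF2 and 71.2, 74.6 and 65.2 in Y/T dKD+FGF2 libraries at d2.5. It was at 21.9, 15.6 and 20.2 CPM with vehicle, 12.3, 10.7 and 12.0 with FGF2 and 12.6, 13.6 and 10.8 with the knockdown at d5. Its knockdown difference was −0.16 (SE 0.06, adjusted p = 0.0342, kept in 5 of 9 fits) at d2.5, the only fall called among the 52, and 0.09 (SE 0.13, adjusted p = 0.681) at d5. The d2.5 call was lost with DESeq2 and without replicate 1 or 3 of either group. The FGF2 effects of Ccnb2 were 0.96 at d2.5 and −1.67 at d5, and those of Cdc25c, a related phosphatase, 1.11 and −1.50. Those of the kinase Plk1 were 1.01 and −1.64, and those of Aurka, the kinase of the spindle poles, 1.23 and −1.59. None of these 4 was called for the knockdown on either day.

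The 4 genes of the chromosomal passenger complex, which corrects wrong attachments of microtubules, were all called higher with FGF2 at d2.5 and all lower at d5. Birc5, its small subunit survivin, was at 32.0, 39.9 and 37.7 CPM in Ctrl+vehicle, 75.0, 80.7 and 80.1 in Ctrl+FGF2 and 80.4, 78.9 and 79.8 in Y/T dKD+FGF2 libraries at d2.5. By d5 it stood at 20.3, 10.7 and 18.3 CPM with vehicle, 7.16, 2.85 and 4.67 with FGF2 and 8.67, 8.96 and 8.34 with the knockdown. The groups with FGF2 overlapped at d2.5 and were apart at d5, with a knockdown effect of 0.84 (SE 0.27, adjusted p = 0.0242, kept in 4 of 9 fits). Incenp, the scaffold, was at 57.2, 62.2 and 58.2 CPM with vehicle, 118, 113 and 123 with FGF2 and 118, 120 and 116 with the knockdown at d2.5. The levels of d5 were 42.7, 26.9 and 29.8 CPM with vehicle, 17.9, 10.7 and 16.3 with FGF2 and 18.3, 23.2 and 21.0 with the knockdown. Its libraries did not overlap between knockdown and Ctrl+FGF2 at d5, yet the difference of 0.48 (SE 0.18, adjusted p = 0.0511) was not called. None of the 4 genes was called for the knockdown at d2.5, and at d5 Aurkb, the kinase subunit, was called besides Birc5 (1.06, SE 0.30, adjusted p = 0.0125, kept in 7 of 9 fits). Cdca8 (borealin) was not called for it (0.58, SE 0.25, adjusted p = 0.092).

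Of the 10 genes of the spindle checkpoint and the APC/C, all were called higher with FGF2 at d2.5 and 8 lower at d5. Bub1b, the checkpoint protein BubR1, was at 62.1, 73.6 and 63.2 CPM in Ctrl+vehicle, 130, 127 and 125 in Ctrl+FGF2 and 135, 128 and 142 in Y/T dKD+FGF2 libraries at d2.5. At d5 it was at 35.7, 21.7 and 28.9 CPM with vehicle, 10.7, 4.80 and 8.61 with FGF2 and 12.2, 15.2 and 14.2 with the knockdown. All d5 libraries with FGF2 lay below all vehicle libraries, at −1.83 (SE 0.20, adjusted p = 8.06e-07). Bub3, which binds Bub1 and BubR1, was at 66.2, 71.4 and 68.2 CPM with vehicle, 82.5, 88.0 and 87.5 with FGF2 and 89.8, 88.9 and 85.8 with the knockdown at d2.5. Its d5 levels were 62.7, 52.8 and 52.8 CPM with vehicle, 52.5, 46.3 and 48.5 with FGF2 and 54.6, 60.6 and 54.8 with the knockdown. Its levels stayed between 46.3 and 89.8 CPM over all 18 libraries, the narrowest span of the 52 by ratio. Pttg1, securin, which holds separase inactive, was at 10.9, 14.4 and 13.7 CPM with vehicle, 22.0, 19.5 and 20.6 with FGF2 and 20.4, 23.3 and 21.1 with the knockdown at d2.5. By d5 it stood at 9.24, 6.99 and 7.35 CPM with vehicle, 6.70, 7.57 and 8.08 with FGF2 and 6.29, 6.39 and 7.43 with the knockdown. Its 3 groups overlapped at d5, and its log2 differences were −0.05 (SE 0.14, adjusted p = 0.774) with FGF2 and −0.17 (SE 0.14, adjusted p = 0.415) with the knockdown.

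Among the other checkpoint and APC/C genes, the kinases Bub1 and Ttk had d2.5 FGF2 effects of 1.24 and 1.23 and d5 effects of −2.03 and −1.60. Mad2l1, the checkpoint's inhibitor of the APC/C, changed by 1.09 and −1.13, and Cdc20, the APC/C activator that it holds, by 1.07 and −1.03. Ube2c, the ubiquitin-conjugating enzyme of the APC/C, changed by 1.30 and −1.84. Espl1 (separase) changed by 0.99 and −1.47, in contrast to its inhibitor Pttg1 at d5, and Sgo1, the guardian of centromeric cohesin, by 1.26 and −1.90. The knockdown was called for Bub1, Mad2l1 and Ttk at d2.5 and for 7 of the 10 at d5, all but Mad2l1, Cdc20 and Pttg1.

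The 10 centromere and kinetochore genes were called higher with FGF2 at d2.5 (median 1.01) and lower at d5 (median −1.72) without exception, and 9 of them were called higher with the knockdown at d5. Cenpe, a kinesin of the kinetochore, was at 101, 102 and 99.3 CPM in Ctrl+vehicle, 208, 207 and 209 in Ctrl+FGF2 and 219, 219 and 229 in Y/T dKD+FGF2 libraries at d2.5. The levels of d5 were 43.5, 24.5 and 32.3 CPM with vehicle, 15.5, 5.04 and 11.8 with FGF2 and 15.3, 17.8 and 17.7 with the knockdown. It was the 1 kinetochore gene not called for the knockdown at d5, where its groups overlapped (0.66, SE 0.27, adjusted p = 0.0663). Cenpf, a large protein of the outer kinetochore, was at 85.6, 84.2 and 84.4 CPM with vehicle, 164, 170 and 172 with FGF2 and 195, 189 and 199 with the knockdown at d2.5. At d5 it was at 48.6, 27.6 and 36.2 CPM with vehicle, 16.7, 6.59 and 10.9 with FGF2 and 15.0, 21.3 and 19.8 with the knockdown. Its knockdown libraries lay above Ctrl+FGF2 at d2.5 (0.20, SE 0.04, adjusted p = 0.000112) and overlapped with them at d5 (0.73, SE 0.25, adjusted p = 0.0349, kept in 5 of 9 fits). Cenpk, of the inner kinetochore, was the lowest of the 52 per kilobase with FGF2 at d2.5 and had levels of 5.17, 6.25 and 6.64 CPM with vehicle, 11.9, 11.8 and 13.0 with FGF2 and 15.3, 15.2 and 13.7 with the knockdown. Its d5 levels were 8.44, 4.58 and 3.86 CPM with vehicle, 3.76, 1.71 and 2.24 with FGF2 and 4.76, 5.06 and 4.17 with the knockdown. Its d2.5 knockdown effect of 0.26 (SE 0.10, adjusted p = 0.0482, kept in 3 of 9 fits) was the largest of that comparison.

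The Ndc80 complex, the microtubule-binding rod of the outer kinetochore, is built of Ndc80, Nuf2, Spc24 and Spc25. Spc24 was at 13.2, 14.5 and 13.8 CPM in Ctrl+vehicle, 23.9, 22.2 and 19.9 in Ctrl+FGF2 and 26.1, 22.0 and 22.5 in Y/T dKD+FGF2 libraries at d2.5. By d5 it stood at 7.94, 5.08 and 6.19 CPM with vehicle, 2.30, 0.732 and 2.24 with FGF2 and 5.10, 4.40 and 4.07 with the knockdown. Its d5 knockdown effect of 1.39 (SE 0.29, adjusted p = 0.00119) was the largest of the 52 and rests on low levels, with 1 Ctrl+FGF2 library under 1 CPM. Spc25 was at 13.7, 16.4 and 15.9 CPM with vehicle, 28.9, 32.3 and 32.6 with FGF2 and 39.6, 33.6 and 36.3 with the knockdown at d2.5. The levels of d5 were 24.0, 11.8 and 16.2 CPM with vehicle, 5.33, 2.52 and 3.23 with FGF2 and 5.35, 6.31 and 8.14 with the knockdown. All groups of a day were apart, and its fall with FGF2 at d5 (−2.22, SE 0.26, adjusted p = 1.91e-06) was the largest of all members. Knl1, the scaffold to which the complex and the checkpoint bind, was at 33.3, 36.6 and 34.7 CPM with vehicle, 82.1, 79.9 and 79.9 with FGF2 and 90.3, 85.3 and 98.2 with the knockdown at d2.5. At d5 it was at 31.4, 17.3 and 21.4 CPM with vehicle, 7.44, 2.52 and 5.29 with FGF2 and 7.73, 11.1 and 10.2 with the knockdown. The order vehicle, knockdown, FGF2 held for every d5 library, with an FGF2 effect of −2.20 (SE 0.26, adjusted p = 1.72e-06). Ndc80 and Nuf2 had d5 knockdown effects of 1.00 and 0.98, both called (kept in 9 and 7 of 9 fits). The centromere histone Cenpa and its reader Cenpn had d5 knockdown effects of 0.70 and 0.83, also called (kept in 5 and 7 of 9 fits).

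The 10 kinesins, motors that walk along or take apart microtubules, were all called higher with FGF2 at d2.5 (0.90 to 1.42) and lower at d5 (−1.52 to −2.10). Kif11, which pushes the spindle poles apart, was at 75.8, 80.8 and 78.1 CPM in Ctrl+vehicle, 163, 170 and 172 in Ctrl+FGF2 and 200, 183 and 200 in Y/T dKD+FGF2 libraries at d2.5. Its d5 levels were 54.8, 31.4 and 45.7 CPM with vehicle, 17.2, 7.40 and 12.2 with FGF2 and 20.9, 24.5 and 21.7 with the knockdown. The knockdown libraries lay above those of Ctrl+FGF2 on both days, by 0.20 (SE 0.04, adjusted p = 0.000316) and 0.88 (SE 0.23, adjusted p = 0.0062). Kif20a, a motor of cytokinesis, was at 76.5, 78.8 and 78.8 CPM with vehicle, 150, 141 and 148 with FGF2 and 157, 149 and 145 with the knockdown at d2.5. By d5 it stood at 37.6, 24.2 and 32.6 CPM with vehicle, 16.1, 6.10 and 10.8 with FGF2 and 13.6, 17.6 and 15.4 with the knockdown. With the knockdown its groups overlapped on both days and it was called on neither (0.03, SE 0.04, adjusted p = 0.655 and 0.51, SE 0.23, adjusted p = 0.108). The knockdown was called for 6 kinesins at d2.5, Kif2c, Kif11, Kif15, Kif18a, Kif20b and Kif23, and for 4 at d5, Kif11, Kif14, Kif15 and Kif20b. Kif18a, which dampens chromosome movement, had the largest d2.5 FGF2 effect of the kinesins (1.42) and Kif14, of cytokinesis, the largest d5 effect (−2.10). The chromokinesins Kif4 and Kif22 were called for the knockdown on neither day. Kif4, Kif22, Ccnb1 and Ccnb2 have annotated pseudogene copies, so reads that match both places could be missing from their counts. Copies were sought only by the symbol of the member, and copies under other names were not looked for.

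The 6 genes of spindle assembly and cytokinesis were called higher with FGF2 at d2.5 and lower at d5. Anln, an actin-binding protein of the contractile ring, was at 105, 121 and 114 CPM in Ctrl+vehicle, 316, 321 and 317 in Ctrl+FGF2 and 339, 326 and 341 in Y/T dKD+FGF2 libraries at d2.5. The levels of d5 were 92.9, 51.2 and 74.1 CPM with vehicle, 33.6, 15.5 and 21.8 with FGF2 and 33.9, 43.5 and 40.8 with the knockdown. Its FGF2 effects were 1.48 (SE 0.04, adjusted p = 2.27e-24) and −1.61 (SE 0.21, adjusted p = 4.97e-06), with no overlap. Ect2, the exchange factor that activates RhoA at the division plane, was at 42.7, 45.6 and 48.6 CPM with vehicle, 153, 144 and 150 with FGF2 and 165, 154 and 161 with the knockdown at d2.5. At d5 it was at 46.4, 28.7 and 39.6 CPM with vehicle, 15.5, 7.57 and 10.9 with FGF2 and 15.6, 19.8 and 17.2 with the knockdown. Its FGF2 effect at d2.5, 1.70 (SE 0.05, adjusted p = 2.92e-24), was the largest of the 52. Racgap1, which binds Ect2, was at 102, 113 and 112 CPM with vehicle, 229, 224 and 225 with FGF2 and 246, 225 and 229 with the knockdown at d2.5. Its d5 levels were 70.4, 43.3 and 60.1 CPM with vehicle, 33.0, 15.5 and 23.5 with FGF2 and 30.0, 38.6 and 35.7 with the knockdown. Its d5 knockdown effect of 0.54 (SE 0.20, adjusted p = 0.0475, kept in 3 of 9 fits) was called although the groups overlapped. Nusap1, a spindle-binding protein, was at 30.6, 38.9 and 37.4 CPM with vehicle, 65.9, 67.8 and 69.8 with FGF2 and 80.3, 76.7 and 82.9 with the knockdown at d2.5. By d5 it stood at 35.6, 18.2 and 30.9 CPM with vehicle, 9.46, 4.07 and 8.17 with FGF2 and 9.60, 11.7 and 11.4 with the knockdown. It was called for the knockdown at d2.5 (0.23, SE 0.06, adjusted p = 0.00278) and not at d5 (0.60, SE 0.27, adjusted p = 0.105). Prc1, which bundles microtubules between the poles, was called for the knockdown on both days (0.13 and 0.89), and Tpx2, the activator of Aurka, on neither.

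Top2a, the topoisomerase that untangles chromosomes, and Mki67, the proliferation marker Ki-67, had the highest mean CPM of the 52 over all 18 libraries, although Bub3 lay above Mki67 in every d5 library with FGF2. Top2a was at 278, 310 and 289 CPM in Ctrl+vehicle, 660, 648 and 671 in Ctrl+FGF2 and 757, 736 and 771 in Y/T dKD+FGF2 libraries at d2.5. The levels of d5 were 245, 128 and 192 CPM with vehicle, 71.2, 33.4 and 53.3 with FGF2 and 90.3, 105 and 100 with the knockdown. No groups of a day overlapped, and its knockdown effects were 0.19 (SE 0.03, adjusted p = 0.000119) and 0.91 (SE 0.21, adjusted p = 0.00335). Mki67 was at 186, 198 and 190 CPM with vehicle, 379, 376 and 390 with FGF2 and 429, 420 and 442 with the knockdown at d2.5. At d5 it was at 108, 63.8 and 87.5 CPM with vehicle, 35.7, 14.2 and 25.0 with FGF2 and 34.2, 43.0 and 41.9 with the knockdown. With FGF2 it changed by 0.99 (SE 0.03, adjusted p = 1.2e-21) and −1.79 (SE 0.21, adjusted p = 1.83e-06), without overlap. The transcription factor Foxm1, an activator of G2 and M phase genes, was at 49.0, 52.1 and 48.2 CPM with vehicle, 123, 122 and 125 with FGF2 and 117, 122 and 114 with the knockdown at d2.5. Its d5 levels were 33.2, 26.0 and 30.9 CPM with vehicle, 17.0, 11.0 and 18.3 with FGF2 and 19.6, 19.6 and 19.9 with the knockdown. Its knockdown libraries lay below Ctrl+FGF2 at d2.5 by a difference that was not called (−0.08, SE 0.04, adjusted p = 0.174). Mybl2 (B-Myb), which acts with MuvB, was at 7.93, 10.1 and 7.80 CPM with vehicle, 27.3, 24.6 and 29.1 with FGF2 and 26.7, 24.7 and 28.5 with the knockdown at d2.5. By d5 it stood at 6.83, 6.08 and 6.19 CPM with vehicle, 2.75, 0.976 and 2.60 with FGF2 and 4.08, 4.98 and 4.38 with the knockdown. It overlapped between the groups with FGF2 at d2.5 (−0.03, SE 0.08, adjusted p = 0.816) and was apart at d5 (1.10, SE 0.25, adjusted p = 0.00243). Its d5 effect rests on low levels, with a Ctrl+FGF2 library at 0.976 CPM.

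**Figure D5:**
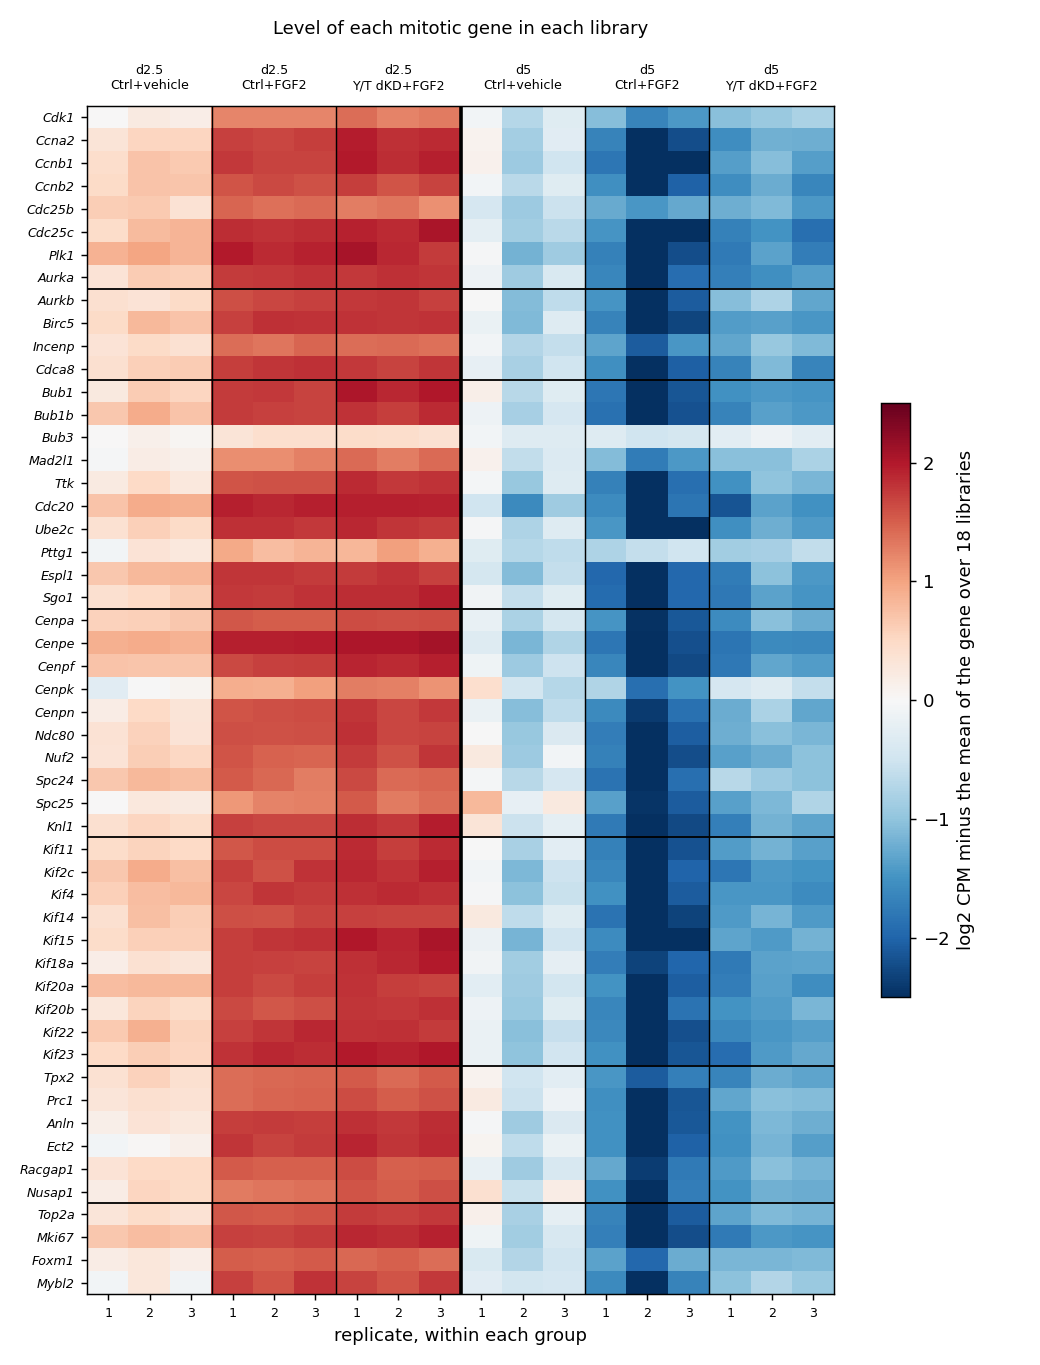
Log2 CPM of each of the 52 genes (rows, by role, with lines between the role groups) in each of the 18 libraries (columns), relative to the mean of the gene, with colours that saturate at a difference of 2.5. Bub3 and Pttg1 are the palest rows, and the d5 Ctrl+FGF2 replicate 2 column is the darkest blue.

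Levels were also divided by exon length, taken as all bases covered by any annotated exon of the gene. This length can exceed that of the RNA present, so the order of genes depends on the annotation. In Ctrl+FGF2 cells at d2.5 the mean levels per kilobase were highest for Ccna2 (73.8 CPM per kb) and Top2a (73.2), followed by Cdc20 (44.2), Tpx2 (42.5) and Ccnb2 (41.4), and lowest for Kif18a (3.66) and Cenpk (2.33). In Ctrl+vehicle cells of that day Top2a (32.4 CPM per kb) and Ccna2 (31.3) also led. In Ctrl+FGF2 cells at d5 Bub3 was the highest (7.01 CPM per kb), ahead of Top2a (5.84) and Ccna2 (4.79), and Kif18a the lowest (0.281). Bub3 had been at 12.3 CPM per kb in Ctrl+FGF2 cells at d2.5.

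A further 125 mitotic genes in 6 lists were read beside the 52. FGF2 raised 102 of them and lowered 10 at d2.5 (median 0.68), where 33.5% of all genes were called higher. Of the 124 tested at d5 it lowered 77 and raised 9 (median −0.38), where 23.7% of all genes were called lower. Other kinetochore and centromere genes had 27 of 30 called higher at d2.5, with Ska1, a microtubule-binding protein, at 1.45, and 22 lower at d5, with Ska1 at −2.37. Condensin and cohesin genes had 17 of 19 called higher at d2.5, led by the condensin subunit Ncapg (1.43), and 14 lower at d5, led by the cohesin acetyltransferase Esco2 (−2.05). Of 27 other spindle and centrosome genes, 25 were called higher at d2.5, among them Plk4, the kinase of centriole duplication (1.37). Of 17 APC/C subunits and regulators, 8 were called higher and 3 lower at d2.5, where 4575 of all 13677 genes were higher and 4668 lower. At d5, 4 of the 17 were higher and 5 lower, shares near those of all 13304 genes (3125 higher and 3153 lower). The APC/C inhibitor Fbxo5 changed by 1.46 and −1.35, while the subunit Cdc16 was lower at d2.5 (−0.40) and the subunit Anapc2 higher at d5 (0.38). Of 21 MuvB, E2F and Rb genes, 15 were called higher and 3 lower at d2.5, with E2f2 at 3.02 and E2f8 at 2.57, and 8 were lower at d5, with E2f7 at −1.85. Of 11 genes that inhibit or release Cdk1, 10 were called higher at d2.5, led by the Cdk1-binding Cks2 (1.23), and 9 lower at d5, led by Mastl (−1.52).

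With the knockdown, 35 of these 125 genes were called higher and 11 lower at d2.5 (median 0.09), and 43 and 6 of 124 at d5 (median 0.20). Over all genes, 1483 of 13677 were called higher and 1862 lower at d2.5, and 2079 of 13304 higher and 2141 lower at d5. At d2.5 the condensin and cohesin genes had 13 of 19 called higher, all by small amounts such as 0.22 (SE 0.04, adjusted p = 0.000329) for Ncapg2, a condensin subunit. The Cdk1-inhibiting kinase Wee1 was higher on both days, by 0.26 (SE 0.05, adjusted p = 0.000387) and 0.62 (SE 0.08, adjusted p = 6.99e-06). The centromere protein Cenpb was lower at d2.5 (−0.30, SE 0.04, adjusted p = 1.66e-06). At d5 Ska1 (1.47, SE 0.38, adjusted p = 0.00651), Nek2, a centrosome kinase (1.27, SE 0.27, adjusted p = 0.00151), and E2f7, a repressor (1.14, SE 0.19, adjusted p = 0.000137), had the largest rises of their lists.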

How the data were processed

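RNA was sequenced from 18 libraries of O9-1 cells. The authors deposited a table of raw read counts per gene for each library. The submitters' processing notes name FastQC, STAR, Picard, featureCounts and mm10 without roles or versions. The reverse-strand count column was used, since it held 96.0 to 96.6% of stranded gene counts. Reads not assigned to a gene, for whatever reason (27.0 to 34.4%), were left out, which left 10377151 to 14698525 counts a library (median 12330911). With these depths, intervals for counting error are narrow except for genes of few counts. Of 55335 identifiers, 55154 matched GENCODE M21 (GRCm38) names without the version number.

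Groups were taken from the labels. With R 4.3.3 and edgeR 4.0.16, the 9 libraries of each day were filtered with filterByExpr, scaled by TMM and compared with the quasi-likelihood test. Calls are at a Benjamini-Hochberg adjusted p under 0.05 over all genes tested. Differences between days came from a fit of all 18 libraries. Levels are CPM with TMM factors over the 18 libraries, while fold changes come from the fit of a day. Each SE was derived from the fold change and its F statistic (size over the root of F). DESeq2 1.42.0, other scalings and filters, unstranded counts, a replicate block, only the 2 groups compared and fits without 1 library were the alternatives. The code was checked on simulated data.

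The members and lists were chosen with earlier results of these data known. Values in every library are given for the 2 members of each role group with the highest mean log2 CPM, the 2 largest rises and falls of each FGF2 or knockdown comparison within a day, and members called against the direction of most. Genes outside the 52 are the up to 3 called ones of a list with the largest fold changes. Other genes and values were named after their values were seen.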

Additional observations from a re-analysis of the deposited data

Results flagged for a closer look

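The effect of FGF2 differed between d2.5 and d5 by a test of the difference itself for 52 members, all toward a lower effect at d5. On the log2 scale the difference was −2.11 for Cdk1, −3.19 for Ccna2, −3.17 for Ccnb1, −1.57 for Cdc25b, −2.85 for Birc5, −2.14 for Incenp, −2.78 for Bub1b, −0.51 for Bub3 and −0.73 for Pttg1. Among kinetochore genes it was −2.71 for Cenpf, −2.68 for Cenpe, −2.14 for Cenpk, −2.54 for Spc24, −3.25 for Spc25 and −3.41 for Knl1. It was −2.44 for Kif20a, −2.95 for Kif11, −2.33 for Racgap1, −3.11 for Anln, −3.46 for Ect2 and −2.89 for Nusap1. For the chromosome proteins and transcription factors it was −2.80 for Mki67, −3.02 for Top2a, −3.25 for Mybl2 and −2.27 for Foxm1. Since each day is a batch, the day and the batch cannot be told apart in these differences.

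The effect of the knockdown differed between the days for 23 members, all toward a higher effect at d5. Among the members given by library the difference on the log2 scale was 0.77 for Ccna2, 0.99 for Ccnb1, 0.83 for Birc5, 0.49 for Incenp, 0.73 for Bub1b, 1.30 for Spc24 and 0.77 for Knl1. It was 0.68 for Kif11, 0.67 for Anln, 0.55 for Ect2, 0.72 for Top2a, 1.14 for Mybl2 and 0.43 for Foxm1. Of all 23, the difference was called in every fit that left out 1 library for Ccnb1, Prc1, Spc24 and Mybl2. The count was 5 without d5 Ctrl+FGF2 replicate 2.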

How the results depend on the processing

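The FGF2 results depended little on the processing. All 52 members were called higher at d2.5 under every alternative run, 50 to 51 were called lower at d5 when 1 library was left out, and the difference between the days was called for 52 in each such fit. When 1 library was left out, the FGF2 median ranged from 1.01 to 1.12 at d2.5 and from −1.96 to −1.34 at d5, and the difference between the days from −3.07 to −2.49. No result reversed. Upper-quartile factors moved the median of all genes in the difference of FGF2 effects from 0.03 to 0.12 on the log2 scale.

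The knockdown counts moved. At d2.5 the 20 members called higher became 11 to 22 when 1 library was left out, and the 1 called lower became 0 to 1, and 0 with DESeq2 and with unstranded counts. At d5 the 32 called higher became 14 with DESeq2 and 10 to 47 without 1 library, with a median of 0.41 to 1.02. The 23 called for the difference between days became 10 with DESeq2, 41 with no filter on low counts and 5 to 43 without 1 library, with a median of 0.33 to 0.93. The cause of these shifts was not tested, beyond the smaller number of samples in the fits without 1 library. Against Ctrl+vehicle, the knockdown cells kept 52 calls at d2.5 in each fit without 1 library, and had 41 to 48 at d5.

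Deviations of same-numbered libraries from their group means correlated at −0.08 to 0.05 at d2.5. At d5, Ctrl+vehicle and Ctrl+FGF2 correlated at 0.14 and 0.16 for replicates 1 and 2 (crossed −0.13 and −0.16) and at 0.02 for replicate 3, while no same-numbered pair with Y/T dKD+FGF2 was above 0. These correlations were taken over all genes that passed the filter. Among the 52 genes at d5, replicate 1 was the highest for 52 with vehicle and for 50 with FGF2. Replicate 2 was the lowest for 51 and 50. With the knockdown, replicate 1 was instead the lowest for 40 and replicate 2 the highest for 39. Not every pair was above 0.1 and no label ties the numbers, so the block stayed an alternative. The main fits thus treat the replicates as unpaired. With the replicate block, 18 members were called higher with the knockdown at d2.5, 41 at d5 (median 0.71) and 34 for the difference between days. No filter gave 47 at d5 and only the 2 groups compared gave 42. Depth limits the d5 values of low genes such as Spc24 and Mybl2.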
